A study of Bos taurus with 16 samples.

Results

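The myostatin and activin signalling genes described here are 10 genes, taken from the 34109 genes in the deposited tables by matching their NCBI gene IDs to the symbols MSTN, GDF11, INHBA, INHBB, FST, FSTL1, FSTL3, ACVR1B, ACVR2A and ACVR2B. All 10 were found, and all 10 had at least 1 count in each muscle. RNA was sequenced from the round muscle of the hind leg and the sirloin muscle in 8 newborn male calves of Hanwoo, a Korean beef breed, as 16 libraries. The dams of 4 calves were the control group, on standard nutrition (labelled 100%). The dams of the other 4 were the treated group, overfed (labelled 150%) during mid to late pregnancy. The calves were sampled right after birth, before colostrum, and received no treatment of their own. Both muscles came from the same 8 calves, so the muscles were compared within calf and the diets within muscle. Calves are named here by diet and replicate number, from control calf 1 to treated calf 4, and a number shared by a control and a treated calf does not link them.

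Myostatin, encoded by MSTN, is a secreted TGF-beta family ligand made by muscle that restrains muscle growth, and cattle without a working copy are double-muscled. It is made as a precursor whose propeptide keeps it inactive until proteases release the mature ligand. The ligand binds the type II receptors ACVR2B and ACVR2A, which recruit a type I receptor such as ACVR1B, and the complex phosphorylates SMAD2 and SMAD3. GDF11 is its closest relative, and INHBA and INHBB encode the subunits of activin A and activin B, which use the same receptors. Follistatin, encoded by FST, and the follistatin-like protein FSTL3 bind these ligands outside the cell and block them. FSTL1 carries a related follistatin domain and is made by many connective tissue cells.

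The libraries held 44473011 to 72446933 counts in round and 44863173 to 72165291 counts in sirloin. Levels are given as the authors' normalized values, which are scaled to gene length and to about the same sum in every library and are called TPM (transcripts per 1000000) here. All 6 skeletal muscle markers were detected, and their summed level was 53302 to 100613 TPM over the libraries. Some libraries stood apart in genes of other cells. The round library of control calf 2 had a summed level of 2141 TPM for 6 fibroblast genes against 174 to 740 TPM in the other 15 libraries, and 72.7 TPM for 4 tendon genes against at most 11.9 TPM. The sirloin library of treated calf 4 had 3962 TPM for 6 adipocyte genes against at most 190.4 TPM elsewhere. The round library of treated calf 2 had the highest sum for 8 slow fibre genes, 81488 TPM against at most 39708 TPM elsewhere, and the lowest for 8 fast fibre genes, 30257 TPM against at least 36478 TPM. In tissue pieces, fewer cells of a type and less RNA per cell cannot be told apart.

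The 10 genes spanned more than 2 orders of magnitude in level. FSTL1 was the most abundant at 37.9 ± 25.9 TPM (mean ± SD, n = 16 libraries), and it was above FST in 16 of 16 libraries. FST, FSTL3 and ACVR2A followed at 6.35 ± 5.21, 6.22 ± 3.48 and 5.68 ± 2.23 TPM. The order among those genes was not stable, since FST was above FSTL3 in 6 and FSTL3 above ACVR2A in 10 of the 16 libraries. ACVR1B reached 3.36 ± 1.11 TPM, lower than ACVR2A in 15 of 16 libraries, and ACVR2B reached 2.68 ± 1.19 TPM. INHBB, GDF11 and MSTN averaged 2.45 ± 1.48, 1.94 ± 1.86 and 1.74 ± 1.75 TPM, and GDF11 exceeded MSTN in 8 of 16 libraries. INHBA was lowest at 0.258 ± 0.571 TPM and lay below MSTN in 14 of 16 libraries. When ranked by the median over libraries, 5 of the 10 genes kept their place.

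MSTN varied widely between calves of the same diet. In round muscle it stood at 1.47, 2.13, 1.33 and 1.63 TPM in control calves 1 to 4 and at 2.21, 0.053, 0.0722 and 5.27 TPM in treated calves 1 to 4. In sirloin muscle the values were 1.14, 5.62, 0.236 and 0.440 TPM in the control calves and 3.47, 0.377, 0.0688 and 2.36 TPM in the treated calves. Treated calf 3 was therefore near 0 in both muscles and treated calf 2 in round, with 9 and 8 counts in round and sirloin for treated calf 3 and 4 and 28 counts for treated calf 2. Treated calves 1 and 4 lay above all control calves in round muscle. The highest of the 16 values was 106-fold above the lowest, and the diets overlapped in both muscles.

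GDF11 kept a narrower range apart from a single library. Its round values were 0.935, 3.70, 1.25 and 2.23 TPM in the control calves and 0.837, 8.30, 1.35 and 1.1 TPM in the treated calves. Its sirloin values were 1.04, 2.36, 1.26 and 2.09 TPM in the control calves and 0.991, 1.63, 1.35 and 0.630 TPM in the treated calves. The 8.30 TPM belonged to the round library of treated calf 2, in which MSTN was at its lowest and the slow fibre genes at their highest, and the part of fibre type in this value was not tested.

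INHBB, the activin B subunit, was detected in every library. Round muscle held 1.32, 1.05, 1.61 and 1.60 TPM in the control calves and 1.02, 2.62, 2.3 and 3.92 TPM in the treated calves. Sirloin muscle held 2.99, 1.14, 3.18 and 1.71 TPM in the control calves and 1.43, 3.63, 2.89 and 6.74 TPM in the treated calves. Treated calf 4 was highest in both muscles, and its 6.74 TPM came from the library with the high adipocyte sum, whose part in that value was not tested. INHBA, the activin A subunit, was near the limit of detection. It had 178 counts in the round library of control calf 2 and 0 to 22 counts in the other 15 libraries, of which 4 had 0 counts, and a count of 0 allows up to 3 counts from counting error alone.

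FST, the main extracellular blocker of these ligands, differed between calves in the same way in both muscles. In round muscle the control calves had 6.15, 5.75, 2.41 and 4.39 TPM and the treated calves 2.78, 8.46, 3.60 and 11.5 TPM. In sirloin muscle the control calves had 4.16, 7.04, 2.06 and 3.22 TPM and the treated calves 2.92, 11.4, 3.4 and 22.4 TPM. Treated calf 4 and then treated calf 2 were the highest in either muscle, while control calf 3 was the lowest in either. The 22.4 TPM came from the library with the high adipocyte sum, whose part in that value was not tested. The ratio of FST to MSTN in TPM was lowest, at 0.843, in the sirloin of treated calf 1. It was highest, at 160, in the round muscle of treated calf 2, where it rests on 4 counts of MSTN. FST lay below MSTN only in that sirloin library.

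The pattern over calves was another one for FSTL3 and FSTL1. FSTL3 had 4.44, 13.2, 10.3 and 11.3 TPM in round muscle of the control calves and 6.09, 7.09, 8.46 and 1.71 TPM in the treated calves. Its sirloin levels were 6.31, 2.28, 4.14 and 9.57 TPM in the control calves and 3.32, 4.32, 4.70 and 2.33 TPM in the treated calves. Treated calf 4, the highest calf for FST, was the lowest for FSTL3 in round, and in sirloin control calf 2 was lowest with treated calf 4 next. FSTL1 had 24.0, 127, 29.6 and 32.8 TPM in round muscle of the control calves and 28.9, 29.6, 51.9 and 33.3 TPM in the treated calves. In sirloin it had 15.5, 40.4, 20.7 and 23.6 TPM in the control calves and 33.6, 34.7, 25.9 and 54.2 TPM in the treated calves. The 127 TPM came from the round library of control calf 2 with its high fibroblast and tendon sums, and the highest sirloin value, 54.2 TPM, from the library of treated calf 4 with its 740 TPM of fibroblast genes.

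Of the receptors, ACVR2B had 1.5, 3.36, 1.40 and 1.28 TPM in round muscle of the control calves and 3.59, 3.02, 1.99 and 1.86 TPM in the treated calves. Its sirloin levels were 1.68, 4.94, 3.01 and 2.01 TPM in the control calves and 5.22, 3.31, 2.48 and 2.18 TPM in the treated calves. Control calf 2 and treated calf 1 were the highest in both muscles. ACVR2A ranged from 2.85 to 10.2 TPM in round and from 2.1 to 9.0 TPM in sirloin, with treated calf 4 highest in both. ACVR1B ranged from 1.5 to 4.90 TPM in round and from 1.82 to 4.82 TPM in sirloin, and control calves 1 and 4 were the lowest in both. The ratio of ACVR2A to ACVR2B in TPM ranged from 0.634 to 5.49, and it was below 1 only in the sirloin of treated calf 2.

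**Figure D1:**
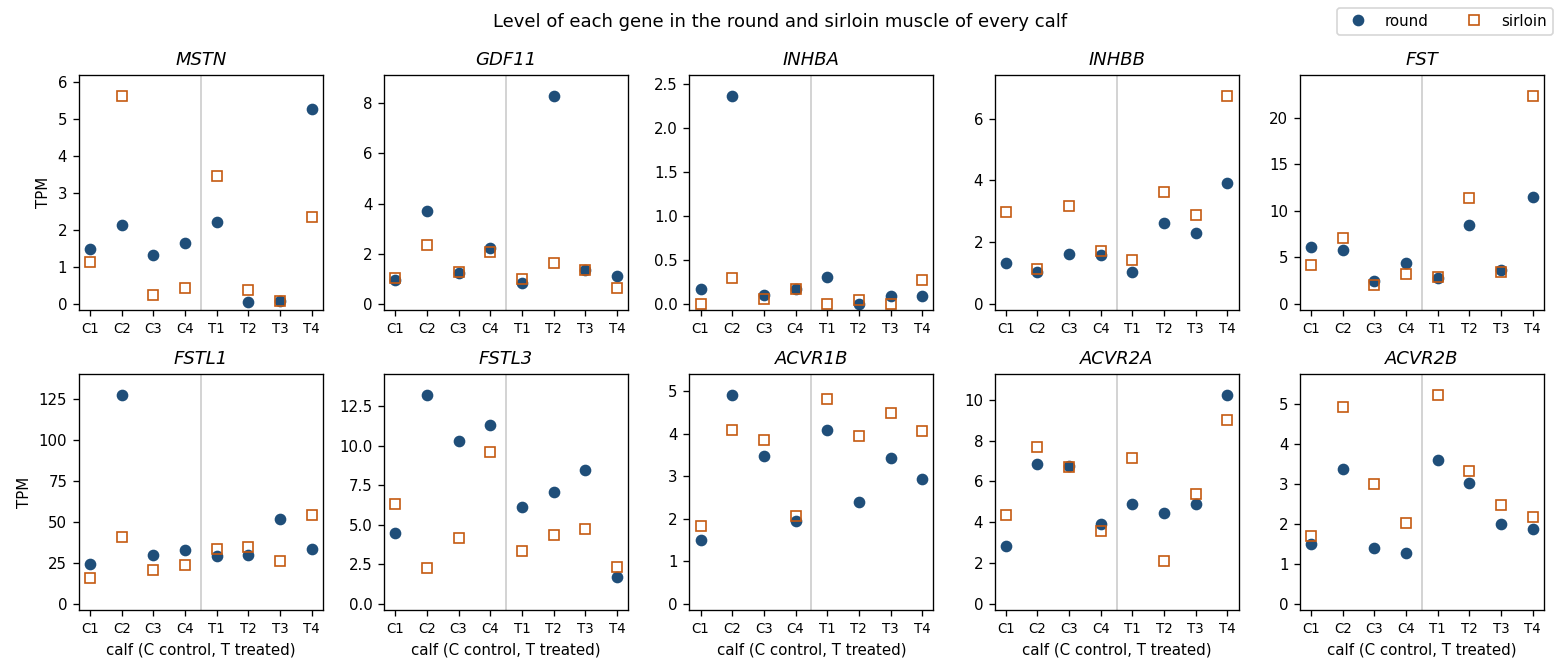
Level of each gene in TPM (linear axes) for control calves C1 to C4 and treated calves T1 to T4, with filled circles for round and open squares for sirloin muscle, 1 library each. MSTN was at most 0.377 TPM in both muscles of T2 and T3, FST was highest in both muscles of T4, and single round libraries reached 8.30 TPM of GDF11 (T2) and 127 TPM of FSTL1 (C2).

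Differences among calves of the same diet were tested over both muscles, with each calf's 2 libraries as its replicates. This test was chosen after the values had been seen. With edgeR's quasi-likelihood test and Benjamini-Hochberg adjustment over all genes, 8 of the 10 genes differed among calves, where 18.5% of all 22877 genes tested did. The adjusted p was 0.00162 for FST, 0.00531 for ACVR2B, 0.00899 for INHBB, 0.0118 for MSTN, 0.0148 for ACVR1B, 0.0228 for ACVR2A, 0.0328 for GDF11 and 0.0377 for FSTL1. INHBA and FSTL3 did not pass, with adjusted p of 0.355 and 0.304. FST passed in all 15 alternatives and ACVR2B, INHBB and ACVR1B in 14, whereas MSTN and ACVR2A passed in 12, GDF11 in 8 and FSTL1 in 7. DESeq2 called the same 8 genes, beside 34.2% of all genes, and limma-voom 5 of 10, beside 18% of all genes. With genes of few counts left out by edgeR's filterByExpr, the same 8 were called, beside 4723 of the 16518 genes kept. That is a larger share than over all genes. Without control calf 2 the genes that passed were MSTN, FST, INHBB and ACVR2A, beside 8.3% of all genes. FSTL1 then had an adjusted p of 0.690. On simulated counts without any change among calves the test called 422 of 22560 genes after adjustment, where almost none should pass. With 200 genes changed in 1 calf it recovered 95.5% of them but made 471 false calls, more than the number of changed genes. Its adjusted p-values were therefore too small, and an adjusted p under the threshold in this test does not by itself establish a difference among calves.

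Between the muscles of a calf, none of the 10 genes passed the adjusted threshold of 0.05 in edgeR with calf as a block, where 0.533% of all genes did, 61 higher and 61 lower in sirloin. At an unadjusted p under 0.05 there were 4 of 10, beside 11.2% of all genes, with ACVR2B and INHBB higher in sirloin and FSTL3 and FSTL1 higher in round. DESeq2 called 1 of the 10, ACVR2B, with an adjusted p of 0.0465, where it called 3.62% of all genes. The median log2 difference, sirloin minus round, was -0.20 over the 10 genes and 0.00 over all genes.

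ACVR2B was 1.31-fold higher in sirloin (log2 0.38, SE 0.12, edgeR adjusted p = 0.196), and it was higher in 8 of 8 calves by 0.06 to 1.01 on the log2 scale. A direction shared by 8 of 8 calves was seen in 2.5% of all genes. The exact two-sided sign-flip permutation test over the 8 calves gave p = 0.0078, the smallest this design allows. INHBB was higher in sirloin in 7 of 8 calves (log2 0.48, SE 0.16, adjusted p = 0.224), with an exact permutation p of 0.0156. The exception was control calf 4, at -0.09 in log2 CPM, although its TPM was slightly higher in sirloin.

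FSTL3 was 1.72-fold higher in round (log2 -0.78, SE 0.27, adjusted p = 0.260) in 6 of 8 calves, with an exact permutation p of 0.0547. Its largest difference, -2.44, was in control calf 2, and without that calf the log2 difference was -0.56. FSTL1 was 1.39-fold higher in round (log2 -0.47, SE 0.21, adjusted p = 0.418). All 4 control calves had more FSTL1 in round, while 3 of the 4 treated calves had more in sirloin. Of the 6 fibroblast genes, 4 were lower in sirloin at an unadjusted p under 0.05, beside 11.2% of all genes in either direction. The median log2 difference over the 6 was -0.87, and the part of connective tissue in the FSTL1 and FSTL3 values was not tested.

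The remaining members had no unadjusted p under 0.05 between the muscles. GDF11 was lower in sirloin in 6 of 8 calves (log2 -0.51, SE 0.26, unadjusted p = 0.0743), and without treated calf 2 its log2 difference was -0.25. MSTN had a log2 difference of -0.34 (SE 0.49) and its calves ran from -2.43 to 2.33, with 3 of 8 higher in sirloin. INHBA had -1.49 (SE 0.86) on few counts. FST (log2 0.04, SE 0.17) and ACVR2A (log2 -0.07, SE 0.16) were each higher in sirloin in 4 of 8 calves, and ACVR1B (log2 0.17, SE 0.12) in 6 of 8.

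**Figure D2:**
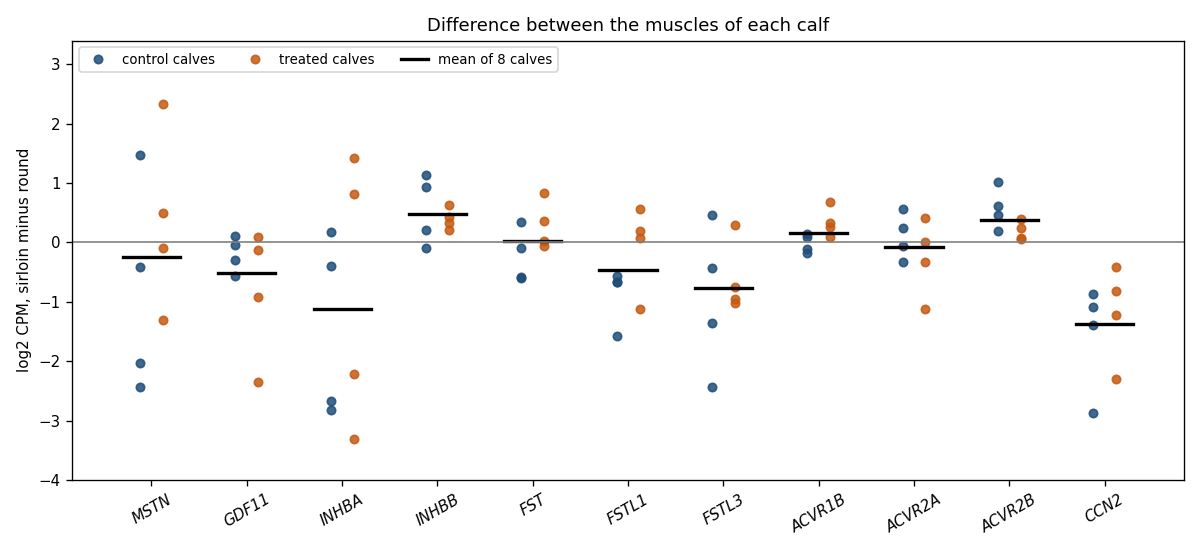
Sirloin minus round difference in log2 CPM (counts per 1000000) for each gene, with 1 point per calf (blue control, orange treated) and a bar at the mean of 8 calves. ACVR2B lay above 0 in all 8 calves and CCN2 below 0 in all 8, while MSTN ran from -2.43 to 2.33.

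The diets were compared within each muscle, which addressed whether overfeeding the dam changed these genes in the calf. None of the 10 genes passed edgeR's test in round, where 0.0185% of all genes did, and none in sirloin, where 0.00918% did. No member reached an unadjusted p under 0.05 in either muscle, beside 4.41% and 3.91% of all genes, and limma-voom called 0 of 10. DESeq2 also called 0 of 10 in each muscle, beside 0.208% of all genes in round and 0.0597% in sirloin. In no member were the 4 treated and 4 control libraries of a muscle without overlap, as 1.76% of all genes were in round and 1.68% in sirloin. The median log2 fold change of the members, treated over control, was 0.20 in round and -0.03 in sirloin, beside 0.02 and 0.03 over all genes.

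FSTL3 was lower in the treated calves by 0.83 on the log2 scale in round and by 0.78 in sirloin, with SE of 0.44 and 0.43 and adjusted p of 0.864 and 0.876. Leaving out a calf gave -1.11 (without treated calf 3) to -0.57 (without treated calf 4) in round and -1.06 (without control calf 2) to -0.44 (without control calf 4) in sirloin. FST had a log2 fold change of 0.44 (SE 0.49) in round and 1.15 (SE 0.62) in sirloin. Without treated calf 4 these values were -0.08 and 0.36. INHBB had 0.71 (SE 0.41) in round and 0.49 (SE 0.49) in sirloin, and these values were 0.32 and 0.02 without treated calf 4.

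MSTN had a log2 fold change of 0.19 (SE 1.01) in round and -0.37 (SE 1.09) in sirloin, the widest errors after INHBA. In round it was -1.12 without treated calf 4, -1.88 with limma-voom, -1.56 with the replicate block and -0.27 and -1.18 with limma on log2(TPM + 1) and log2(TPM + 0.1). In sirloin it was 1.14 without control calf 2. INHBA had -2.25 (SE 1.12) in round, which was -0.23 without control calf 2, and -0.96 (SE 1.39) in sirloin, which was -0.41 without control calf 2 and -2.86 without treated calf 4. GDF11 had 0.37 (SE 0.67) in round, which was -0.90 without treated calf 2, and -0.72 (SE 0.40) in sirloin.

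FSTL1 had -0.57 (SE 0.44) in round, which was 0.13 without control calf 2, and 0.41 (SE 0.30) in sirloin. Among the receptors, ACVR2B had 0.42 (SE 0.33) in round and 0.01 (SE 0.36) in sirloin, and the round value was 0.71 without control calf 2. ACVR1B had 0.07 (SE 0.34) in round and 0.38 (SE 0.29) in sirloin, and ACVR2A had 0.21 (SE 0.36) and -0.08 (SE 0.41).

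**Figure D3:**
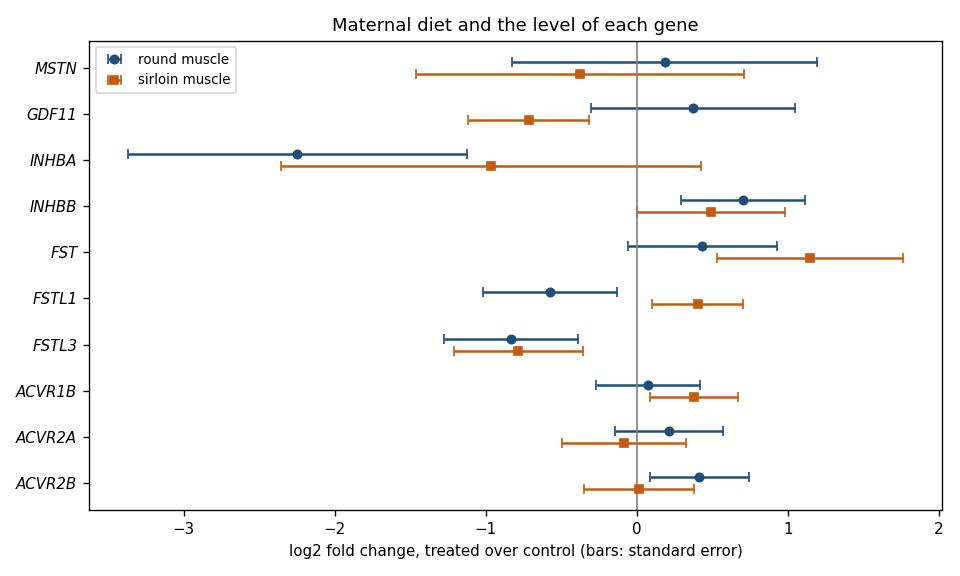
Log2 fold change of treated over control for each gene from edgeR, with circles for round and squares for sirloin muscle and bars of 1 standard error (4 against 4 libraries). The widest bars belong to INHBA and MSTN, and no gene passed the adjusted threshold in either muscle.

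Whether the diet effect differed between the muscles was tested as an interaction with calf as a block. None of the 10 genes passed, where 0.00437% of all genes did, nor did any with DESeq2, beside 0.0175%. FSTL1 alone had an unadjusted p under 0.05, beside 3.78% of all genes. The FSTL1 difference, sirloin effect minus round effect, was 0.80 (SE 0.36, edgeR adjusted p = 1). Leaving out a calf gave 0.56 (without control calf 2) to 1.13 (without treated calf 3), and the unadjusted p stayed under 0.05 only without control calf 3 or treated calf 3. For MSTN the sign depended on the fit, at 1.04 (SE 0.95) with the calf block and -0.53 without it.

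The rest of the pathway was followed in a list of 48 genes, of which 45 had counts in each muscle and 46 over both. INHBC and FSTL5 had 0 counts in all 16 libraries. None passed for diet in round or in sirloin or for the interaction, and 2 of 45, 2 of 45 and 8 of 46 had an unadjusted p under 0.05, beside 4.41%, 3.91% and 3.78% of all genes. Between the muscles 1 of 46 passed, lower in sirloin, beside 0.533% of all genes, and 8 of 46 had an unadjusted p under 0.05, beside 11.2%. Among calves of a diet 19 of 46 passed, beside 18.5% of all genes, in the test whose adjusted p-values were too small.

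The gene that passed between muscles was CCN2, a matrix-associated growth factor and a known target of SMAD3 and of other signals. In round muscle CCN2 had 15.4, 69.9, 26.0 and 17.7 TPM in the control calves and 10.5, 7.12, 42.0 and 18.8 TPM in the treated calves. Its sirloin values were 8.66, 9.04, 10.2 and 9.57 TPM in the control calves and 4.95, 4.11, 9.20 and 15.6 TPM in the treated calves. It was higher in round in 8 of 8 calves, by 2.58-fold (log2 -1.36, SE 0.24, adjusted p = 0.0247). A direction shared by 8 of 8 calves was seen in 2.5% of all genes. On simulated counts without any change this fit made 13 calls among 22552 genes, where almost none should pass. CCN2 did not pass without the calf block, where the smallest adjusted p among the 46 genes was 0.293. Without control calf 3, control calf 4 or treated calf 1 it did not pass either, with an adjusted p of 0.0748, 0.0700 and 0.0786. Nor did it pass with limma on log2(TPM + 1), where the adjusted p was 0.117, or on log2(TPM + 0.1), where 0 of the 46 genes passed. Of 5 smooth muscle genes, 2 were also lower in sirloin after adjustment, beside 0.533% of all genes called in either direction. The median log2 difference over the 5 was -0.69, and the part of vessel or matrix cells in the CCN2 value was not tested. TGFBI, another SMAD2/3 target on the list, had a log2 difference of -0.20.

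For diet, the smallest p-values of the list in round were those of ACVR1 and TGFB1, neither past the adjusted threshold. ACVR1, a type I receptor of the activin and BMP branch, had -0.85 (SE 0.34) in round and 0.03 (SE 0.23) in sirloin. TGFB1, the founding ligand of the family, had -0.76 (SE 0.32) and -0.34 (SE 0.35). BMPR2, a type II receptor for BMP ligands, had -0.64 (SE 0.34) and -0.57 (SE 0.23). ACVR1C, another type I receptor, had 36 counts in the sirloin library of treated calf 4, the library with the high adipocyte sum, and 0 counts in the other 15. TGIF1, a nuclear repressor of SMAD-driven transcription, had the smallest interaction p, with a difference of 0.97 (SE 0.31, edgeR adjusted p = 1).

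The feedback inhibitors SMAD7 and SKIL, which are induced by the pathway and turn it down, did not pass in any of these 4 comparisons. SMAD7 had a log2 fold change for diet of -0.51 (SE 0.39) in round and -0.12 (SE 0.38) in sirloin, and SKIL had -0.65 (SE 0.35) and -0.47 (SE 0.31). Between muscles their log2 differences were -0.17 (SE 0.22) and -0.01 (SE 0.12). Among calves of a diet SKIL passed with an adjusted p of 0.0154, and SMAD7 did not, with 0.246. The adjusted p-values of that calf test were too small, so the SKIL call does not by itself establish a difference.

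The levels of MSTN and FSTL1 were set beside those of cell and fibre markers. The 3 libraries with MSTN below 0.1 TPM were the round and sirloin libraries of treated calf 3 and the round library of treated calf 2. They had the 3 highest slow fibre sums, 33573 to 81488 TPM, whereas in the other 13 libraries the sum was at most 29715 TPM. The sum of 29715 TPM belonged to the sirloin library of treated calf 1, which had 3.47 TPM of MSTN. The sirloin library of treated calf 2, with 0.377 TPM of MSTN, had 21150 TPM of slow fibre genes. For the fast fibre genes, the round libraries of treated calves 2 and 3 had the lowest sums of all libraries, 30257 and 36478 TPM. The sirloin library of treated calf 3 had 48735 TPM of fast fibre genes. That was above the 48124 TPM in the sirloin of control calf 2, which had 5.62 TPM of MSTN. The library with the most FSTL1 had the highest fibroblast sum, and the next highest FSTL1 level came with the next highest sum. Below these the orders parted. The round library of treated calf 3 had 51.9 TPM of FSTL1 at a fibroblast sum of 398 TPM. Higher sums, 583 TPM in the sirloin of control calf 2 and 503 TPM in the round muscle of treated calf 4, came with 40.4 and 33.3 TPM of FSTL1. These points are libraries of 8 calves in pairs, and the part of fibre or cell makeup in the levels was not tested.

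**Figure D4:**
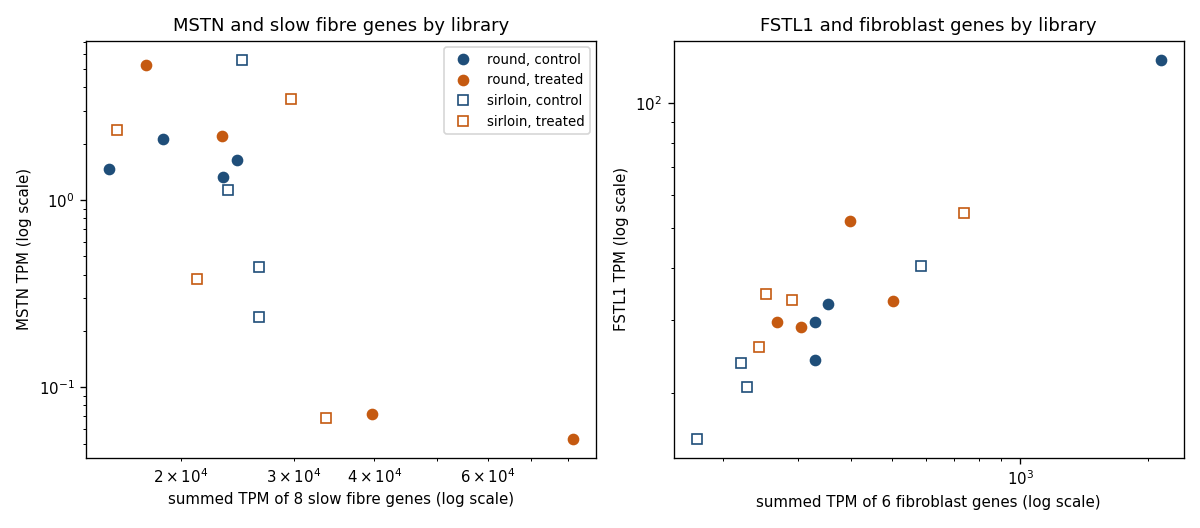
TPM of MSTN against the summed TPM of 8 slow fibre genes (left) and of FSTL1 against that of 6 fibroblast genes (right) in the 16 libraries, all axes on log scales, with filled symbols for round, open for sirloin, blue for control and orange for treated. The 3 lowest MSTN values lie at the right, at 33573 to 81488 TPM of slow fibre genes, and the FSTL1 value of 127 TPM lies at 2141 TPM of fibroblast genes.

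The 5 genes whose pattern over the 16 libraries was most like that of MSTN, after the 4 group means were removed, were SFT2D1 (Pearson's r 0.955), MPP1 (0.924), PC (0.912), RPS19BP1 (0.908) and GPI (0.907), out of 12314 genes compared. PC encodes the mitochondrial enzyme pyruvate carboxylase, and GPI encodes glucose-6-phosphate isomerase of glycolysis. Their levels were 5.59 to 27.2 TPM for PC and 180 to 669 TPM for GPI. The libraries share calves and differ in depth and fibre makeup, so these correlations are a description.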

How the data were processed

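Muscle RNA of 8 calves was sequenced as 16 libraries. The study's methods name HISAT2, Bowtie2 and StringTie and an rRNA and globin depletion kit. The submitters' processing notes name STAR, featureCounts and the build ARS-UCD1.2, and the sample labels state poly(A) selection. Which aligner, counter and selection apply was not settled. Both name FastQC, Trimmomatic and DESeq2. The authors deposited whole-number read counts per gene without normalization, and normalized values that are TPM here because they sum to 999756 to 1000000 per library. Deposited comparison tables, which hold the authors' fold changes and p-values, were not used. Of 34109 gene IDs, 30762 (90.2%) matched a RefSeq symbol of assembly ARS-UCD2.0, so no coordinates are given.

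Counts were fitted in R 4.3.3 with edgeR 4.0.16 (TMM factors, glmQLFit, glmQLFTest, two-sided), on genes with at least 1 count in any library of the fit, with Benjamini-Hochberg adjustment over all genes and a threshold of 0.05. Diets were compared in the 8 libraries of a muscle, and muscles and the interaction in all 16 with calf as a block. The two-sided test among calves within diet, with 4 group means in the model, and the counts over the pathway list were added after the data were seen. Standard errors are the log2 fold change divided by the square root of F. Alternatives were DESeq2 1.42.0, limma-voom and limma 3.58.1 on log2(TPM + 1) and log2(TPM + 0.1), RLE and upper-quartile factors, filterByExpr, blocks, 1 fit over both muscles and leaving out each calf. Log2 CPM used a prior count of 2, and likeness used genes of mean CPM of at least 1.

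The fits were tested on simulated counts in which 200 genes were given a log2 change of 2. They recovered 83% (diet in round), 81.5% (diet in sirloin), 100% (round against sirloin), 95.5% (interaction) and 95.5% (1 calf changed). The false calls were 16, 12, 34, 81 and 471 in the same order. The changed genes had a mean CPM above 1, so these rates do not describe smaller changes or genes of lower level. With no change the fits made 3, 0, 13, 47 and 422 calls. The labels give the same calf number to the round and sirloin libraries of an animal. With group means removed, the muscles of a calf correlated at 0.311 to 0.765 over 12315 genes and those of other calves at -0.524 to 0.456. The members and gene lists were chosen with earlier results of these data known. The text names all 10 members, for each diet, muscle and interaction comparison the pathway genes past the threshold or otherwise the 2 with the smallest p, SMAD7 and SKIL, and the 5 genes most like MSTN. From the pathway list, 1 gene was taken out after its results were known and is not reported here, so the list's counts cover the other 48 genes only.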

Additional observations from a re-analysis of the deposited data

Results flagged for a closer look

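In 5 of the 40 groups of 4 libraries (10 genes, 2 muscles and 2 diets), a single library lay far from the other 3 by Dixon's test at the 95% level. About 2 would be expected for independent, normally distributed values. All 5 were in round muscle. The values tested were CPM on a linear scale and some flags shared a library, so the expected number is only a rough guide. GDF11 was at 8.83 CPM in treated calf 2, against 1.02 to 1.60 CPM in the other treated calves. INHBA was at 2.31 CPM in control calf 2, against 0.121 to 0.197 CPM in the other control calves. In the same library FSTL1 was at 252 CPM, against 58.7 to 79.7 CPM, and ACVR2B at 21.1 CPM, against 9.85 to 11.1 CPM. ACVR2A was at 27.7 CPM in treated calf 4, against 10.5 to 13.1 CPM. The sirloin library of control calf 2 was also the highest of the 4 control sirloin libraries for ACVR2B (4.94 TPM), FSTL1 (40.4 TPM) and INHBA (22 counts), and that of treated calf 4 the highest treated one for ACVR2A (9.0 TPM). That of treated calf 2 was also the highest treated one for GDF11, at 1.63 TPM against 0.630 to 1.35 TPM.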

How the results depend on the processing

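Across all genes, diet in round gave 4 calls with edgeR, 45 with DESeq2, 1 with limma-voom, 0 and 1 with limma on log2(TPM + 1) and log2(TPM + 0.1), and 2 with the replicate block, and 0 to 3 when each calf was left out. Diet in sirloin gave 2, then 13, 0, 0 and 1, and 0 with the replicate block, and 0 to 1 without a calf. Round against sirloin gave 122, DESeq2 829, the TPM fits 57 and 75, no replicate block 14, and 44 (without treated calf 1) to 368 (without treated calf 4). The interaction gave 1, DESeq2 4, the TPM fits 0 and 0, no replicate block 0, and 0 to 2 without a calf. For the members these 4 comparisons gave 0 calls, and among their alternatives only DESeq2 changed a count, to 1 between muscles. The pathway list gave 1 call between muscles, 4 with DESeq2, 2 with upper-quartile factors, 0 and 0 with the TPM fits, 0 with no replicate block, and 0 (without control calf 3, control calf 4 or treated calf 1) to 3 (without treated calf 4). Calf differences gave 4237 calls, 7815 with DESeq2 and 1871 (without control calf 2) to 4596. They gave 8 member calls, 5 with limma-voom, 4 and 5 with the TPM fits and 4 to 7 without a calf. The pathway list there gave 19, and 12 (without control calf 2) to 18 without a calf. By the median, 5 members kept their place in the order of levels.

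The following log2 fold changes turned in sign, none of them past the threshold, and the cause was not tested. MSTN for diet in round was -1.88 with limma-voom, -0.27 and -1.18 in the TPM fits and -1.56 with the replicate block. GDF11 there was -0.16 with limma-voom and -0.0575 with the block. ACVR2B for diet in sirloin was -0.0154 with limma-voom, and SMAD7 was 0.0536 and 0.0762 in the TPM fits. Between muscles the TPM fits gave ACVR2A 0.0120 and 0.0056 and SKIL 0.0514 and 0.0733. For the interaction, MSTN was -0.0514 with limma-voom and -0.53 with no replicate block.

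Leaving out each calf turned the sign as well. For diet in round the ranges were -1.12 to 0.58 for MSTN, -0.90 to 0.67 for GDF11, -0.0788 to 0.69 for FST, -0.81 to 0.13 for FSTL1, -0.11 to 0.29 for ACVR1B and -0.21 to 0.40 for ACVR2A. For diet in sirloin they were -1.13 to 1.14 for MSTN, -0.35 to 0.21 for ACVR2A, -0.33 to 0.36 for ACVR2B, -0.0409 to 0.14 for ACVR1, -0.22 to 0.37 for TGIF1 and -0.44 to 0.0919 for SMAD7. Between muscles they were -0.0726 to 0.13 for FST, -0.17 to 0.0723 for ACVR2A and -0.0720 to 0.0809 for SKIL. For the interaction they were -0.87 to 1.68 for INHBA, -0.36 to 0.0446 for INHBB, -0.19 to 0.77 for FSTL3, -0.11 to 0.30 for BMPR2, -0.0869 to 0.71 for CCN2 and -0.0245 to 0.30 for SKIL.

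Control and treated calves with the same replicate number share only that number. Their correlations were -0.0436 to 0.290 in round and -0.280 to 0.274 in sirloin. With 4 calves a diet, standard errors of 0.29 to 1.39 on the log2 scale limit what a member's diet effect could show, and INHBA and the lowest MSTN libraries rest on few counts.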
